A study of Homo sapiens with 12 samples.

Results

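The genes described here are the amino acid arm of the integrated stress response, headed by the transcription factor ATF4, together with cytosolic aminoacyl tRNA synthetases. They were taken by symbol from the expression table, and all 32 were found among its 25528 rows. They comprise 4 transcription factors, 5 stress effectors and feedback genes, 8 biosynthetic enzymes, 3 amino acid transporters and 12 synthetases. RNA-seq was made after lentiviral infection of HT-29, a human cell line established from a colon adenocarcinoma, in which APC is mutant. The GFP group, the control, and the CTNNB1 group carried open reading frames and were collected 2 days after infection. The shNT1 group, a control hairpin, and the shAPC group, a hairpin against APC, were collected 1 day after 2 µM doxycycline. There were 3 libraries in each of the 4 groups, and the labels do not say whether the libraries came from separate cultures. Vector cargo, doxycycline and collection time differ together between the hairpin and open reading frame groups, so their parts in any difference between those groups cannot be told apart.

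When amino acids run short or other stresses act, kinases phosphorylate the translation factor eIF2α. General translation then falls while the ATF4 messenger RNA is translated more, and ATF4 protein induces genes that make, import and charge amino acids. Among its targets are CHOP (DDIT3), which follows prolonged stress, and TRIB3, which feeds back on ATF4. Much of the control of ATF4 is therefore translational, and the RNA of ATF4 and of its targets is what was measured here. In colon cancer cells the same enzymes and carriers also supply serine, one-carbon units and essential amino acids for growth.

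Expression is given as TPM, a length-scaled share of each library's total, so that more of a few abundant RNAs lowers the share of all others. Sequencing depth is unknown because TPM does not keep it. APC was at 5.48 to 6.59 TPM in the shAPC libraries and 15.8 to 17.3 TPM in the shNT1 libraries, a log2 difference of -1.32 (SE 0.08, adjusted p = 6.1e-06, limma). CTNNB1 was at 156 to 165 TPM in the CTNNB1 libraries against 144 to 149.6 TPM in the GFP libraries, a log2 difference of 0.13 that missed the threshold (adjusted p = 0.059, limma); whether reads of the introduced reading frame are counted with the gene is not given in the sources used here. Of 10 colon epithelial markers, 8 reached 1 TPM, with CDX1 and CDX2 under 1 TPM, and markers of fibroblasts summed to at most 1.60 TPM and of endothelium to at most 0.478 TPM. Of immune markers, LYZ, which is also made by some epithelial cells, reached 8019 TPM, while PTPRC and CD3E stayed under 1 TPM. A hairpin control library stood apart for these genes: shNT1 replicate 3 was the lowest of its group for 25 of the 30 genes with a mean of at least 1 TPM, against 27.7% of 11741 genes in all. Its median deviation from the mean of the other shNT1 libraries was -0.16 log2 units over these genes and 0.05 over all genes, it had 14756 genes above 0 TPM against 15357 to 16186 in the other libraries, and its correlation with its group was 0.991 to 0.994. Most counts of called genes, and many of the values by gene, are therefore given with and without it where they involve shNT1. Medians and counts without overlap include it.

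ATF4 and its C/EBP partners bind a composite element, the C/EBP-ATF response element, here searched as TGATGNAA on both strands (TTNCATCA on the other). Promoters of 300 bases, 250 before the annotated start and 50 after it, were found in RefSeq (GRCh38.p14) for 27 of the 32 genes; PSPH, SHMT2, ALDH1L2, LARS and YARS had no entry. The letters were present for 11 of them: ASNS, CHAC1, SLC3A2, SLC7A1, AARS, CARS, GARS, IARS, MARS, NARS and TARS. Among all 27305 symbols in the RefSeq table the share was 4.457%. A symbol counted if any of its promoters held the letters. By promoter, 11 of the 42 of these genes held them, beside 3.617% of all promoters. Of the 10 synthetases with a promoter, 7 held the letters, against 0 of 9 promoter-matched genes among the other cytosolic synthetases and complex scaffolds and 1 of 14 mitochondrial synthetases. A match is a description of the letters and not evidence of binding, and many of these genes entered the group because they are known ATF4 targets. The windows shown belong to the transporters and synthetases that the comparisons turn on and to ASNS and CHAC1, and the capitals mark the element.
ASNS (chr7:97872458-97872487, minus strand): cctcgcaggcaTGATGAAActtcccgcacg
CHAC1 (chr15:40953251-40953280, plus strand): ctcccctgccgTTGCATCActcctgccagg
SLC3A2 (chr11:62881725-62881748, plus strand): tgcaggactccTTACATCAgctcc
SLC7A1 (chr13:29595663-29595692, minus strand): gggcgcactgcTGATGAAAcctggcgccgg
GARS (chr7:30594834-30594863, plus strand): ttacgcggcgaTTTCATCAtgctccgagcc
NARS (chr18:57621804-57621833, minus strand): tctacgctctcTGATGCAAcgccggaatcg
Positions are counted from the start of the promoter that holds the letters, 1 of 2 in ASNS and GARS and 1 of 3 in SLC3A2. The element begins 68 bases before this annotated start in ASNS, 209 before it in CHAC1 and 33 before it in GARS. It lies after the start in SLC7A1 (from base 8), NARS (from base 15) and SLC3A2 (from base 38), counting the start as base 1. ASNS and SLC7A1 share the same 8 letters, TGATGAAA, on the gene's strand, and GARS holds them on the other strand. SLC3A2 has TGATGTAA, alone among the 11, and the other 7 have TGATGCAA.

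Levels in single libraries ran from 0.0236 to 382 TPM. TARS, which charges threonine, IARS, which charges isoleucine, and ATF4 were among the most abundant, at group means of 322 to 374, 245 to 294 and 244 to 319 TPM. ASNS, asparagine synthetase and a classical ATF4 target, was at 0.161 to 0.760 TPM in every library, and ALDH1L2, a mitochondrial one-carbon enzyme, was at 0.0236 to 0.110 TPM. Both lay under the mean of 1 TPM required for testing, so that 30 genes were tested. The exons of ASNS share 1985 bases, 44.6% of their length in GENCODE v29, with AC079781.5 on the same strand. How reads in shared bases were counted is not given in the sources used here.

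**Figure D1:**
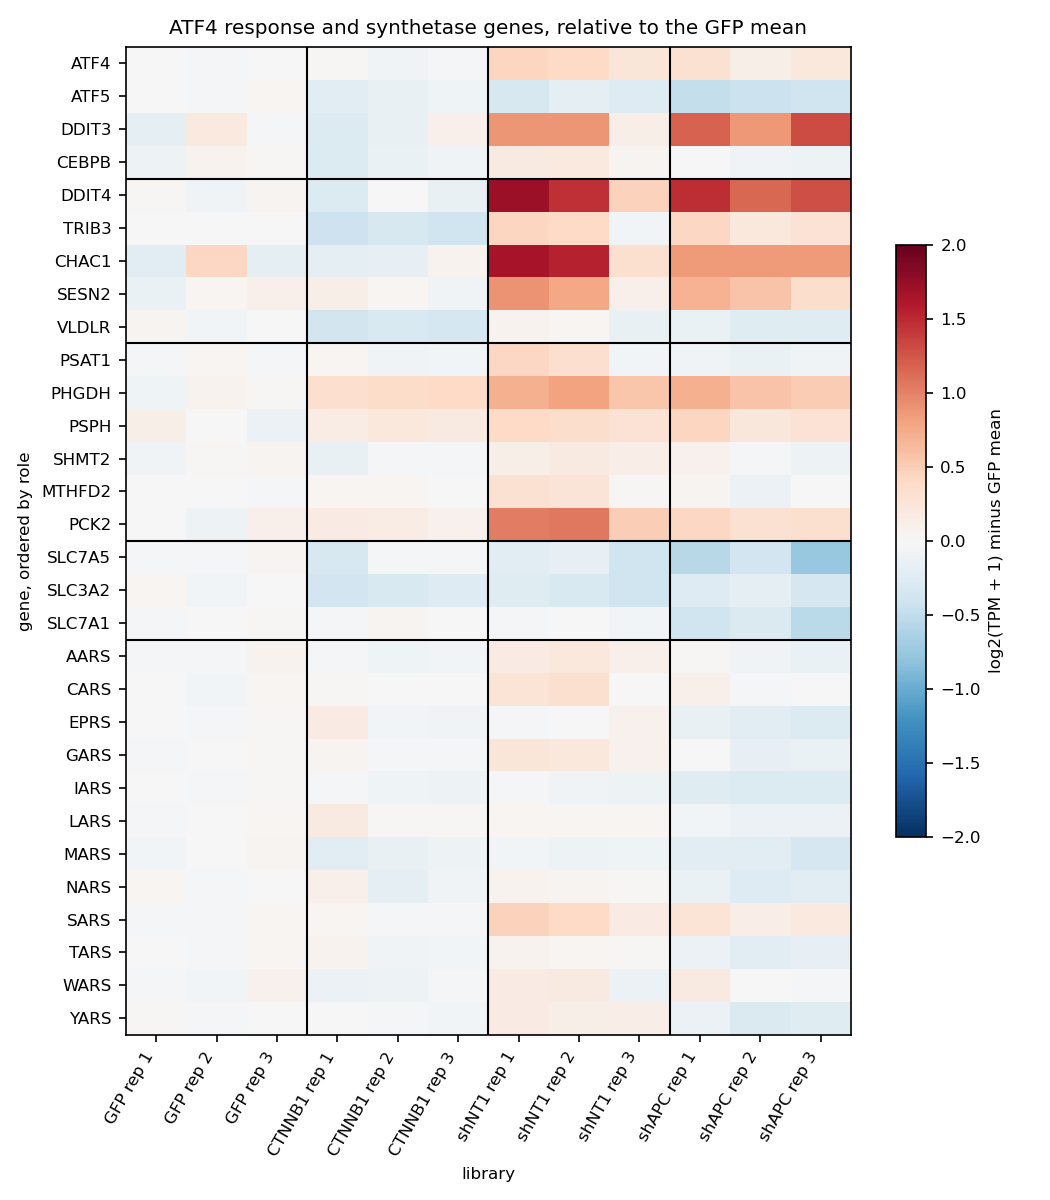
Heat map of log2(TPM + 1) minus the GFP mean for the 30 tested genes (rows, ordered by role) in the 12 libraries (columns, 3 per group). DDIT4, CHAC1, DDIT3, SESN2, PCK2 and PHGDH are red in the hairpin libraries, and shNT1 replicate 3 is paler than the other shNT1 libraries for most of them.

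The first comparison asked how the group differed when the CTNNB1 open reading frame replaced GFP. Few of its genes did. TRIB3, SLC3A2, VLDLR and MARS fell and PHGDH rose, each by less than 0.4 log2 units, while ATF4 itself was at a mean of 244 ± 8.3 TPM (SD, n = 3) with CTNNB1 and 248 ± 2.5 TPM (SD, n = 3) with GFP. The 5 calls of 30 tested genes stood beside 23.5% of all 11624 genes called (limma on log2(TPM + 1), Benjamini-Hochberg adjusted p under 0.05), with 16.3% higher and 7.16% lower. The median difference of the group was -0.04 log2 units beside 0.06 over all genes tested. The libraries of the groups did not overlap for 10 genes, 2 higher and 8 lower, beside 43.2% of all genes, 30.2% higher and 13.0% lower. PHGDH, SLC3A2 and TRIB3 kept their calls under every alternative, whereas VLDLR lost its call without any GFP library or without CTNNB1 replicate 2 (adjusted p up to 0.0819) and MARS with no filter, with quantile normalization and without any GFP library or CTNNB1 replicate 1 or 2 (up to 0.173). The count was 3 without GFP replicate 2, GFP replicate 3 or CTNNB1 replicate 2. It was 7 with median-ratio scaling, 1 higher and 6 lower, where ATF5 and IARS were added as lower. In that fit 11.6% of all genes were higher and 11.9% lower. With quantile normalization the split was 1 higher and 4 lower.

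The second comparison set the APC hairpin against the control hairpin. In the fit over all 6 libraries every gene called was lower with shAPC: 8 of 12 synthetases, the transporters SLC7A1 and SLC7A5, the enzymes PCK2 and PSAT1, and CEBPB. That is 13 of 30, beside 22.1% of all 11834 genes called, 14.9% of them lower and 7.24% higher. The median difference was -0.19 log2 units for the group and -0.04 for all genes, and the libraries did not overlap for 15 genes, 0 higher and 15 lower, beside 40.9% of all genes, 14.5% higher and 26.4% lower. The stress effectors DDIT4, TRIB3, CHAC1 and SESN2 were not called. SLC7A1, YARS and NARS kept their calls under every alternative. The count was 8 with no filter on low values, 7 with median-ratio scaling, 5 with quantile normalization, 7 without shNT1 replicate 1, 8 without shNT1 replicate 2, 7 without shAPC replicate 2 and 5 without shAPC replicate 3. Without shNT1 replicate 3 it was 17, all lower, beside 7.20% of all genes higher and 11.8% lower. Of these 17, 12 were among the 13. ATF4, CHAC1, MTHFD2, CARS and SARS were added and MARS was lost. DDIT3 was called higher, and is in the count, without shNT1 replicate 1, without shNT1 replicate 2 and with a mean of at least 5 TPM, where 1 gene was higher and 14 lower.

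**Figure D2:**
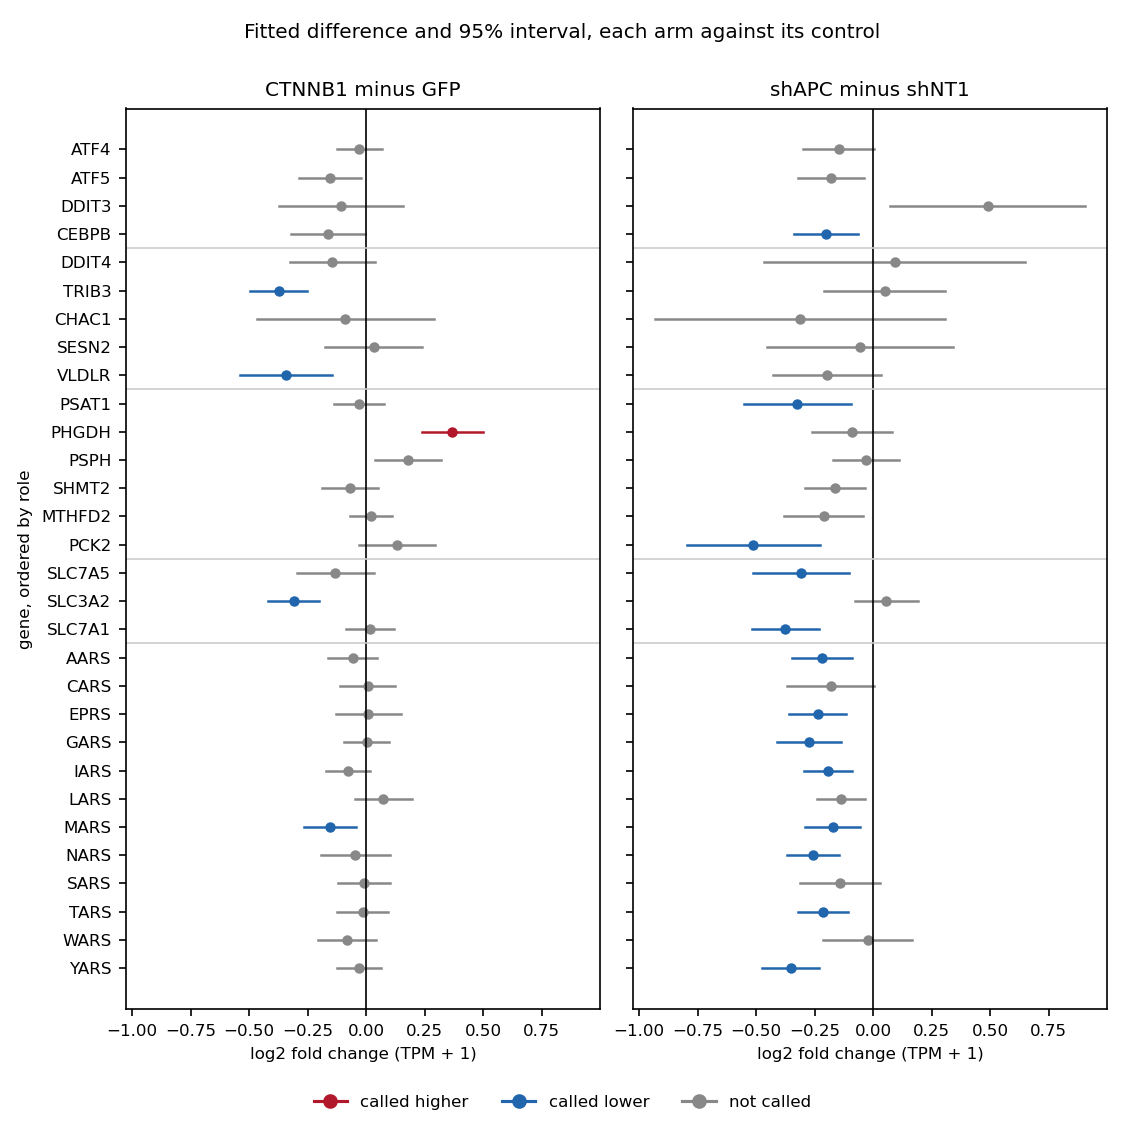
Fitted log2 fold change on the TPM + 1 scale (x axis) with its 95% interval for each tested gene (y axis), CTNNB1 minus GFP on the left and shAPC minus shNT1 on the right. Blue marks genes called lower, red genes called higher; the 13 blue points on the right include 8 synthetases.

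The next 2 comparisons set the hairpin groups, which received doxycycline, beside the open reading frame groups. In both, DDIT4, DDIT3, CHAC1 and SESN2 rose, and SLC7A5 and ATF5 fell. Between the controls, shNT1 minus GFP, 16 of 30 genes were called, 13 higher and 3 lower, beside 33.1% of 11659 genes, 23.2% higher and 9.92% lower. Called higher were ATF4, DDIT3, DDIT4, CHAC1, SESN2, PHGDH, PSPH, SHMT2, PCK2 and the synthetases SARS, GARS, AARS and YARS, and called lower were ATF5, SLC7A5 and SLC3A2. The median difference was 0.15 log2 units for the group and 0.06 for all genes, and the libraries did not overlap for 16 genes, 12 higher and 4 lower, beside 48.6% of all genes, 33.6% higher and 15.0% lower. The split was 7 higher and 5 lower with median-ratio scaling and 11 and 3 with quantile normalization. ATF4, ATF5, DDIT4, PCK2, PHGDH, PSPH, SARS and SLC3A2 kept their calls under every alternative. The count was 10 without GFP replicate 1 or 2, 9 without shNT1 replicate 1, 10 without shNT1 replicate 2 and 22 without shNT1 replicate 3. The 22, 19 higher and 3 lower, stood beside 23.9% of all genes higher and 14.5% lower in that fit.

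Between the perturbed groups, shAPC minus CTNNB1, 14 of 30 genes were called, 8 higher and 6 lower, beside 25.3% of 11788 genes, 9.05% higher and 16.2% lower. Higher were ATF4, DDIT3, DDIT4, TRIB3, CHAC1, SESN2, PHGDH and SARS, and lower were ATF5, SLC7A5, SLC7A1, EPRS, IARS and YARS. The median was 0.03 log2 units for the group and -0.04 for all genes, and the libraries did not overlap for 19 genes, 11 higher and 8 lower, beside 41.9% of all genes, 15.7% higher and 26.3% lower. The split was 10 and 5 with median-ratio scaling and 11 and 1 with quantile normalization, and the count was 7 without CTNNB1 replicate 2 and 9 without shAPC replicate 3. CHAC1, DDIT3, DDIT4, SESN2, SLC7A1 and TRIB3 kept their calls under every alternative that tested them. CHAC1 was too low to be tested with a mean of at least 5 TPM. These comparisons share no library, but each shares its libraries with the 2 arms. Setting all 6 hairpin libraries beside all 6 open reading frame libraries, ATF4, DDIT4, PHGDH, PSPH, PCK2 and SARS were higher without overlap, 6 of 30 genes, and 0 were lower, beside 8.13% of 11741 genes, 4.17% higher and 3.96% lower.

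**Figure D3:**
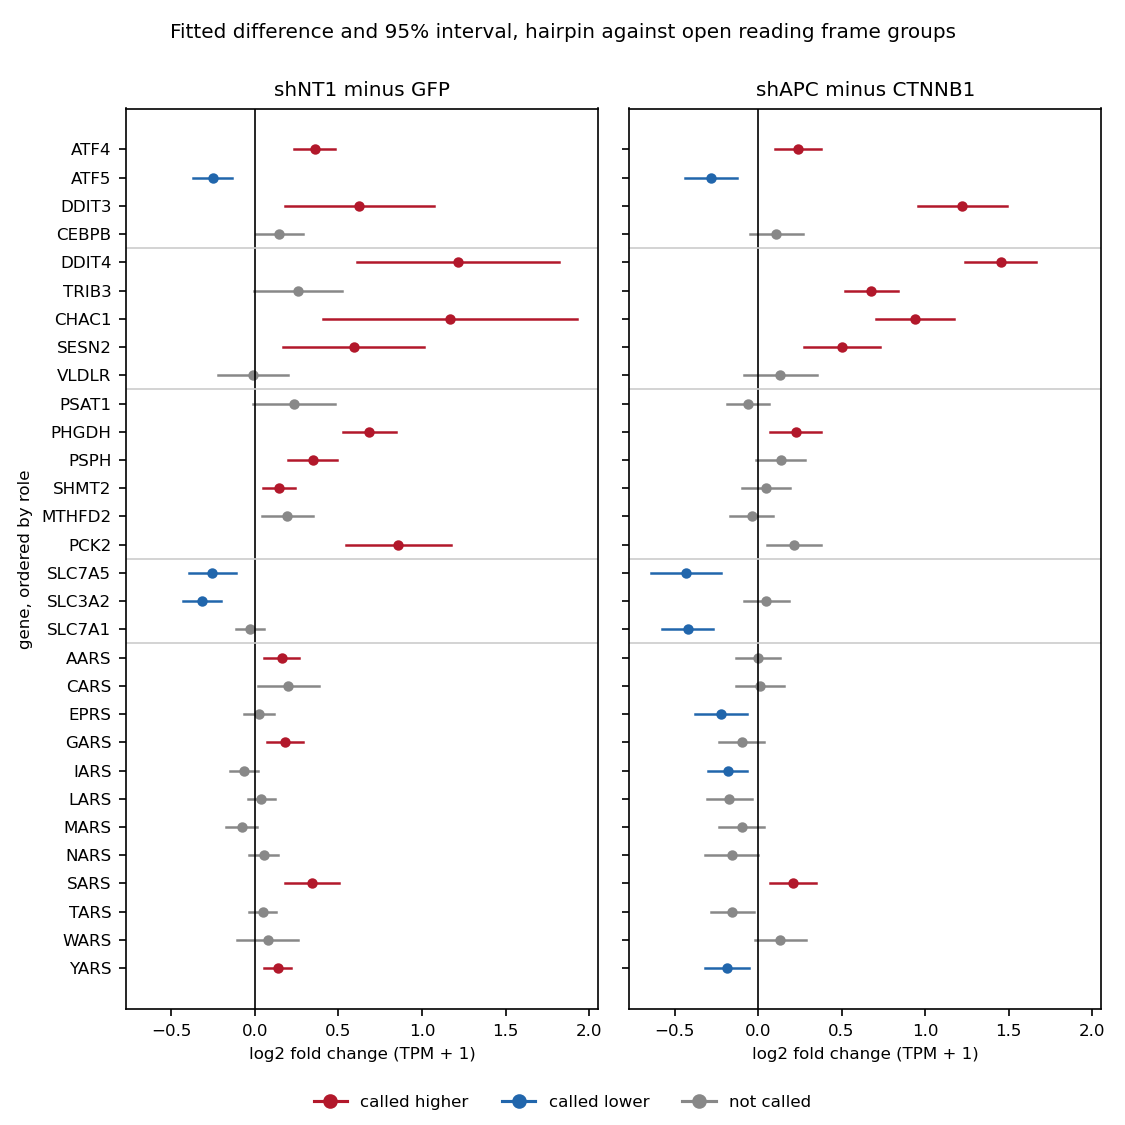
Fitted log2 fold change on the TPM + 1 scale (x axis) with its 95% interval for each tested gene (y axis), shNT1 minus GFP on the left and shAPC minus CTNNB1 on the right. DDIT4 has the highest point in both panels, at 1.22 and 1.45, and SLC7A5 and ATF5 are called lower in both.

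Of the transcription factors, ATF4 (chr22:39519695-39522685, plus strand, GENCODE v29, hg38) is the head of the response. Its levels were 249.8, 246 and 249.8 TPM in the GFP libraries, 253, 237 and 241 in the CTNNB1 libraries, 337, 329 and 293 in the shNT1 libraries and 308, 269 and 286 in the shAPC libraries. All hairpin libraries were above all open reading frame libraries. ATF4 rose by 0.36 log2 units between the controls (SE 0.05, adjusted p = 0.0017, limma) (0.42 without shNT1 replicate 3) and by 0.24 between the perturbed groups (SE 0.06, adjusted p = 0.0162), the latter lost without CTNNB1 replicate 2, shAPC replicate 1 or shAPC replicate 3 (adjusted p up to 0.0688). Between the hairpins the difference was -0.15, which missed the threshold (adjusted p = 0.149) and passed it without shNT1 replicate 3 (-0.21, adjusted p = 0.0345).

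DDIT3 encodes CHOP, a factor of prolonged stress. It was at 7.11, 9.44 and 8.03 TPM with GFP and 6.54, 7.25 and 8.84 TPM with CTNNB1. It was at 15.8, 15.9 and 8.93 TPM with shNT1 and 19.8, 15.6 and 21.5 TPM with shAPC. The shAPC libraries lay above every open reading frame library, whereas shNT1 replicate 3 lay within the GFP range. The rise was 1.22 log2 units in shAPC against CTNNB1 (SE 0.12, adjusted p = 7.1e-05, limma) and 0.63 in shNT1 against GFP (SE 0.20, adjusted p = 0.0384). The latter call was lost with no filter, under both other scalings and without any GFP library or shNT1 replicate 1 or 2 (adjusted p up to 0.124). The rise in shNT1 against GFP reached 0.88 without shNT1 replicate 3. Between the hairpins the difference was 0.49 (95% interval 0.07 to 0.91, adjusted p = 0.0887), and 0.24 without shNT1 replicate 3 (adjusted p = 0.153). It passed the threshold without shNT1 replicate 1 (0.61, adjusted p = 0.0446), without shNT1 replicate 2 (0.62, adjusted p = 0.0382) and with a mean of at least 5 TPM (adjusted p = 0.0479). The exons of DDIT3 share 355 bases, 27.2% of its exon length in GENCODE v29, with MARS on the opposite strand, and whether the counting used strand is not given in the sources used here.

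ATF5, a relative of ATF4 with a similar translational control, moved the other way. Its group means were 27.6 TPM with GFP, 24.8 with CTNNB1, 23.0 with shNT1 and 20.2 with shAPC. It fell by 0.25 log2 units between the controls (adjusted p = 0.0070, limma) and by 0.28 between the perturbed groups (adjusted p = 0.0134), the latter lost with quantile normalization and without CTNNB1 replicate 2 or 3 (adjusted p up to 0.0544). Its exons share 626 bases, 21.2% of their length, with NUP62 on the opposite strand. CEBPB, a C/EBP factor that pairs with ATF4, was at 33.3 to 41.5 TPM in the group means and fell by 0.20 with shAPC against shNT1 (adjusted p = 0.0415), a call lost with no filter, under both other scalings, with a replicate block and without shNT1 replicate 1 or 2 or shAPC replicate 2 or 3 (adjusted p up to 0.138).

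Of the stress effectors, DDIT4 (REDD1), an inhibitor of mTORC1, differed most. It was chosen for values by library after its difference was seen. It was at 13.4, 12.3 and 13.5 TPM with GFP, 10.6, 13.0 and 11.7 with CTNNB1, 45.2, 37.8 and 18.4 with shNT1 and 38.1, 30.3 and 33.5 with shAPC. Every hairpin library was above every open reading frame library, and shNT1 replicate 3 was the lowest of the 6. The rise was 1.22 log2 units between the controls (SE 0.27, adjusted p = 0.0097, limma) and 1.45 between the perturbed groups (SE 0.10, adjusted p = 5.8e-06). Without shNT1 replicate 3 the former was 1.59. The hairpins differed by 0.09 (95% interval -0.47 to 0.65), and by -0.28 without shNT1 replicate 3 (adjusted p = 0.0634). The antisense gene DDIT4-AS1 shares 847 bases of its exons, 41.2% of their length.

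TRIB3, the pseudokinase that restrains ATF4, fell with CTNNB1. Its levels were 29.8, 30.1 and 30.2 TPM with GFP and 22.3, 23.9 and 22.6 TPM with CTNNB1. The hairpin libraries held 40.8, 39.8 and 28.7 TPM with shNT1 and 40.1, 35.1 and 36.8 TPM with shAPC. The CTNNB1 libraries were below all 9 others. The fitted difference was -0.37 log2 units (SE 0.05, adjusted p = 0.0011, limma), and TRIB3 was 0.68 higher with shAPC than with CTNNB1 (SE 0.07, adjusted p = 9.7e-05). Between the controls the difference was 0.26 (adjusted p = 0.122), and 0.41 without shNT1 replicate 3 (adjusted p = 0.00018).

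CHAC1, an enzyme that degrades glutathione, was at 1.33, 2.64 and 1.41 TPM with GFP, 1.42, 1.45 and 1.86 with CTNNB1, 7.55, 6.95 and 2.40 with shNT1 and 3.96, 3.93 and 3.92 with shAPC. The shNT1 group was the most spread, with its replicate 3 below the highest GFP library. CHAC1 rose by 1.17 log2 units between the controls (SE 0.33, adjusted p = 0.0280, limma), a call lost with no filter, with quantile normalization and without GFP replicate 1 or 3 or shNT1 replicate 1 or 2 (adjusted p up to 0.0933) and 1.59 without shNT1 replicate 3, and by 0.94 between the perturbed groups (SE 0.11, adjusted p = 0.00015). Against shNT1 the shAPC difference was -0.31 (95% interval -0.93 to 0.30), and -0.74 without shNT1 replicate 3 (adjusted p = 0.00022).

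SESN2, a sestrin that senses leucine upstream of mTORC1, was at 4.49, 5.19 and 5.50 TPM with GFP, 5.56, 5.22 and 4.78 with CTNNB1, 10.3, 9.28 and 5.52 with shNT1 and 8.78, 7.93 and 6.69 with shAPC. The shAPC libraries were above all CTNNB1 libraries, and shNT1 replicate 3 was within the CTNNB1 range. SESN2 rose by 0.50 log2 units between the perturbed groups (SE 0.10, adjusted p = 0.0048, limma) and by 0.59 between the controls (SE 0.18, adjusted p = 0.0383), the latter lost with no filter, under both other scalings, with a replicate block and without any GFP library or shNT1 replicate 1 or 2 (adjusted p up to 0.132) and 0.83 without shNT1 replicate 3. VLDLR, a lipoprotein receptor induced by ATF4, was low, at group means of 3.16 TPM with GFP, 2.28 with CTNNB1, 3.14 with shNT1 and 2.60 with shAPC, and fell by 0.34 with CTNNB1 (adjusted p = 0.0206).

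**Figure D4:**
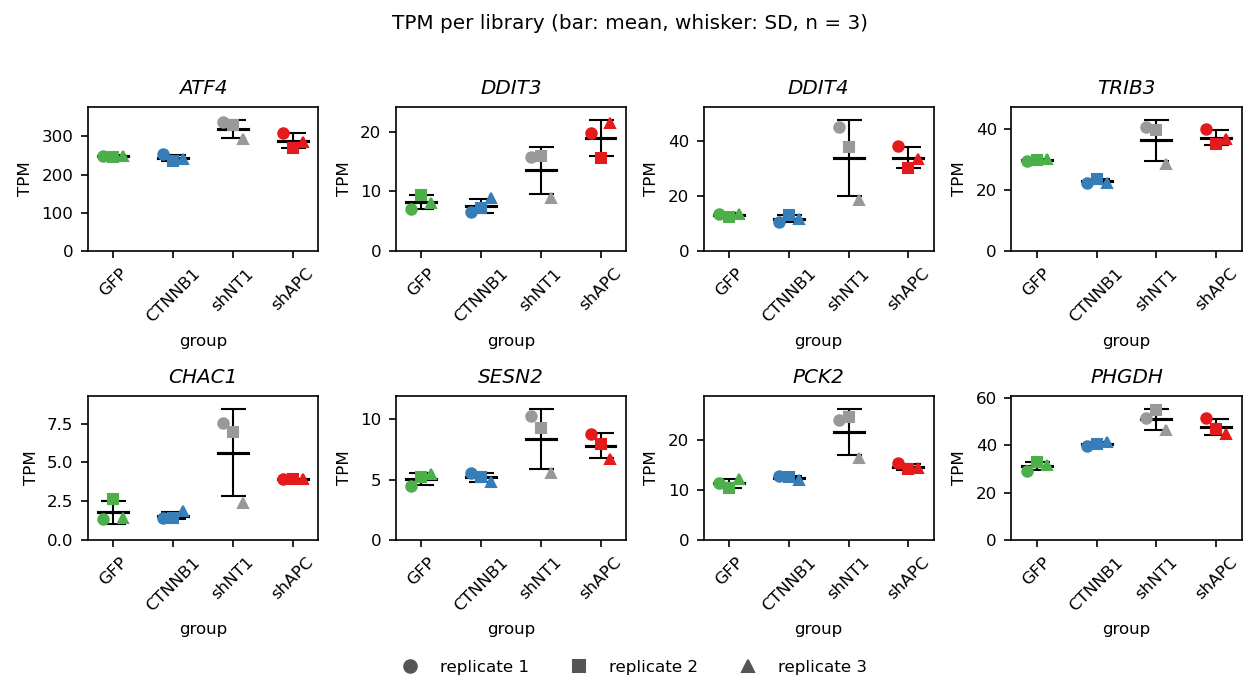
TPM (y axis, from 0) per library for 8 genes in the 4 groups (x axis), with the group mean as a bar and the SD as a whisker, n = 3. In the shNT1 group the triangle, replicate 3, lies below the other libraries in every panel, and for DDIT3 it reads 8.93 TPM against 15.8 and 15.9.

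The biosynthetic enzymes of the serine pathway did not move as a block. PHGDH, which commits a glycolytic intermediate to serine synthesis, was at 29.2, 32.8 and 31.7 TPM with GFP and 39.6, 40.6 and 41.5 TPM with CTNNB1. It was at 51.5, 55.0 and 46.2 TPM with shNT1 and 51.6, 46.8 and 44.7 TPM with shAPC. The GFP, CTNNB1 and hairpin libraries thus formed 3 levels that did not overlap. PHGDH rose by 0.37 log2 units with CTNNB1 (SE 0.06, adjusted p = 0.0019, limma) and by 0.69 in shNT1 against GFP (SE 0.07, adjusted p = 0.00028). The difference between hairpins was -0.09 (95% interval -0.26 to 0.08). These last values were 0.75 and -0.16 without shNT1 replicate 3.

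PSAT1, the next enzyme of the pathway, was several times more abundant per length, at 174, 181 and 174 TPM with GFP and 182, 167 and 169 TPM with CTNNB1. It was at 235, 224 and 169 TPM with shNT1 and 168, 161 and 167 TPM with shAPC. The shAPC libraries lay just under shNT1 replicate 3 and well under the other shNT1 libraries. PSAT1 fell by 0.32 log2 units with shAPC against shNT1 (SE 0.10, adjusted p = 0.0462, limma). This call was lost with no filter, under both other scalings and without shNT1 replicate 1, shNT1 replicate 2 or any shAPC library (adjusted p up to 0.158). The difference was -0.47 without shNT1 replicate 3 (adjusted p = 0.00011). PSPH, which completes serine synthesis, had group means of 58.7 TPM with GFP, 66.4 with CTNNB1, 74.7 with shNT1 and 73.2 with shAPC, and rose by 0.34 between the controls (adjusted p = 0.0046).

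PCK2, a mitochondrial enzyme that makes phosphoenolpyruvate, was the enzyme with the largest difference in the hairpin arm. It was at 11.4, 10.4 and 12.2 TPM with GFP, 12.8, 12.7 and 12.1 with CTNNB1, 23.9, 24.7 and 16.4 with shNT1 and 15.4, 14.3 and 14.4 with shAPC. All shAPC libraries lay between the open reading frame libraries and the shNT1 libraries. PCK2 fell by 0.51 log2 units with shAPC against shNT1 (SE 0.13, adjusted p = 0.0182, limma) and rose by 0.86 in shNT1 against GFP (SE 0.14, adjusted p = 0.0025). The former call was lost without any shAPC library (adjusted p up to 0.0642) and with no filter or under both other scalings (up to 0.0853). Without shNT1 replicate 3 the differences were -0.69 and 1.04.

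The mitochondrial folate enzymes varied little. SHMT2 had group means of 150.2 to 174 TPM and rose by 0.14 log2 units between the controls (adjusted p = 0.0319, limma). That call was lost with median-ratio scaling, in the fit of all 4 groups and without GFP replicate 1 or 2 or shNT1 replicate 1 or 2 (adjusted p up to 0.188). MTHFD2 had group means of 256 to 297 TPM and was called in no comparison, with 0.19 between the controls (adjusted p = 0.0551) and -0.21 between the hairpins (adjusted p = 0.0706). Without shNT1 replicate 3 these were 0.28 (adjusted p = 0.00038) and -0.30 (adjusted p = 0.0048). The exons of MTHFD2 share 1324 bases, 27.2% of their length, with SLC4A5 on the opposite strand. ASNS, not tested, was at 0.235, 0.161 and 0.252 TPM with GFP, 0.282, 0.406 and 0.315 with CTNNB1, 0.749, 0.760 and 0.251 with shNT1 and 0.317, 0.632 and 0.396 with shAPC. Its shNT1 replicate 3, at 0.251 TPM, lay within the GFP range.

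The transporters called in the 4 pairwise comparisons were all lower. SLC7A5 and SLC3A2 encode the light and heavy chains of LAT1, the carrier of leucine and other large neutral amino acids, and SLC7A1 (chr13:29509410-29595688, minus strand) is the main carrier of arginine and lysine. Their values by library were chosen for print after they were seen. SLC7A1 was at 102, 105 and 106 TPM with GFP, 103, 109 and 105 with CTNNB1, 102, 105 and 101 with shNT1 and 79.2, 85.5 and 71.9 with shAPC. The shAPC libraries were below all 9 others. SLC7A1 fell by 0.38 log2 units with shAPC against shNT1 (SE 0.07, adjusted p = 0.0030, limma) and by 0.42 against CTNNB1 (SE 0.07, adjusted p = 0.0015). The first value was -0.38 without shNT1 replicate 3 as well.

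The LAT1 chains both fell in shNT1 against GFP. SLC3A2 was at 189, 177 and 185 TPM with GFP and 141, 149 and 153 TPM with CTNNB1. With shNT1 it was at 156, 148 and 139 TPM and with shAPC at 154, 161 and 145 TPM. The GFP libraries were above all 9 others. SLC3A2 fell by 0.31 log2 units with CTNNB1 (SE 0.05, adjusted p = 0.0019, limma) and by 0.32 in shNT1 against GFP (SE 0.05, adjusted p = 0.0023), while the hairpins differed by 0.06 (95% interval -0.08 to 0.19). SLC7A5 had group means of 176 TPM with GFP, 161 with CTNNB1, 148 with shNT1 and 119.6 with shAPC. It fell by 0.25 in shNT1 against GFP (adjusted p = 0.0148), a call lost without GFP replicate 3 and in the fit of all 4 groups (adjusted p up to 0.0588). It fell by 0.31 with shAPC against shNT1 (adjusted p = 0.0387), where 1 shAPC and 1 shNT1 library overlapped. That call was lost with no filter, under both other scalings and without shNT1 replicate 1 or 2 or shAPC replicate 1 or 3 (adjusted p up to 0.150). The difference was -0.38 without shNT1 replicate 3. With shAPC against CTNNB1 SLC7A5 fell by 0.43 (adjusted p = 0.0077), a call lost with quantile normalization or no filter (adjusted p up to 0.0644).

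The synthetases attach amino acids to their tRNAs and several are ATF4 targets. With the CTNNB1 open reading frame MARS, for methionine, was the 1 of 12 that was called, at -0.15 log2 units (adjusted p = 0.0487, limma), and the median over the 12 was -0.02 beside 0.06 for all genes. With shAPC against shNT1 all 12 had values below 0 and 8 fell: YARS (tyrosine) by 0.35 (SE 0.05, adjusted p = 0.0016), GARS (glycine) by 0.28 (SE 0.06, adjusted p = 0.0109), NARS (asparagine) by 0.26 (SE 0.05, adjusted p = 0.0058) and EPRS (glutamate and proline) by 0.24 (SE 0.05, adjusted p = 0.0123), with TARS at -0.22, AARS (alanine) at -0.22, IARS at -0.19 and MARS at -0.17. CARS (cysteine), LARS (leucine), SARS (serine) and WARS (tryptophan) were not called. The median over the 12 was -0.20 beside -0.04 for all genes. The count of 8 was 6 with median-ratio scaling and 4 with quantile normalization, where 11 of 12 values stayed below 0. It was 4 without shNT1 replicate 1 or shAPC replicate 3, 5 without shNT1 replicate 2 or shAPC replicate 2 and 9 without shNT1 replicate 3. Of the 7 synthetases with the element in the promoter 6 fell, and of the 3 without it 1 fell, as a description without a test. YARS and LARS had no promoter entry and are outside these counts. Among the other genes of the group, 1 of 3 tested with the element fell, and 4 of 13 without it.

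Values by library for YARS and NARS, chosen after they were seen, show the size of these differences. YARS was at 174, 168 and 172 TPM with GFP, 171, 168 and 164 with CTNNB1, 191, 185 and 188 with shNT1 and 157, 139.9 and 145 with shAPC. The shAPC libraries were below all others. NARS was at 219, 207 and 215 TPM with GFP, 229, 189 and 204 with CTNNB1, 225, 223 and 217 with shNT1 and 194, 178 and 184 with shAPC. Its shAPC libraries were below every GFP and shNT1 library and overlapped the CTNNB1 libraries. Between the controls SARS rose by 0.34 log2 units (SE 0.07, adjusted p = 0.0082, limma), from a mean of 58.7 to 74.8 TPM, and GARS, AARS and YARS rose by 0.18, 0.16 and 0.14. GARS and AARS lost these calls in 4 of the 6 fits that left out a library and YARS in 3, and the count of synthetases called higher ran from 1 (without GFP replicate 2 or shNT1 replicate 1) to 6 (without shNT1 replicate 3). With median-ratio scaling 1 synthetase was called higher and 2 lower, and with quantile normalization 5 were higher and 0 lower.

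**Figure D5:**
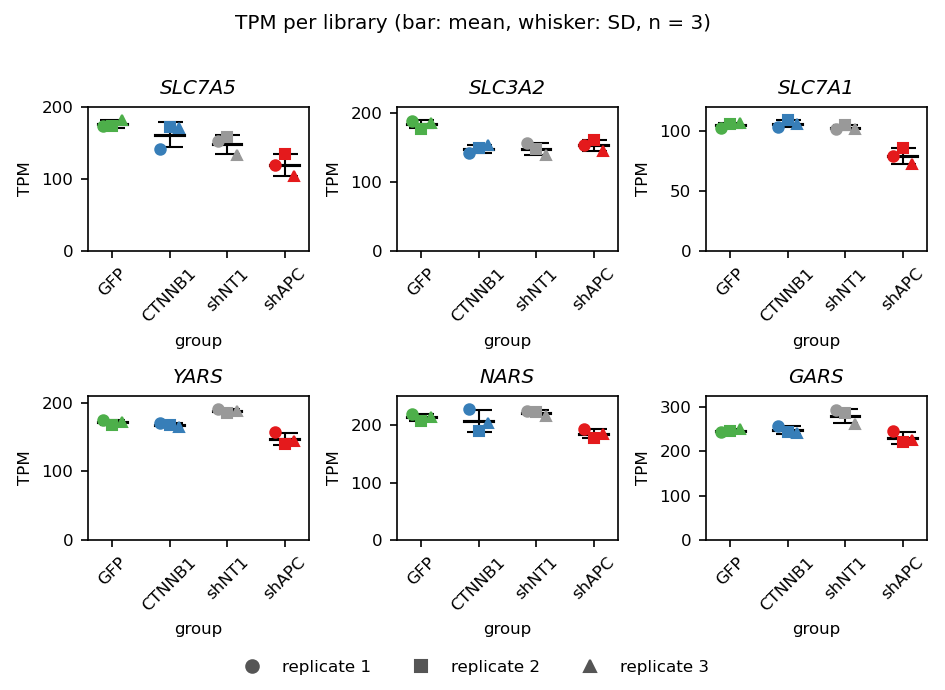
TPM (y axis, from 0) per library for 3 transporters and 3 synthetases in the 4 groups (x axis), with the group mean as a bar and the SD as a whisker, n = 3. The shAPC libraries are the lowest for SLC7A1 (71.9 to 85.5 TPM) and YARS (139.9 to 157 TPM), and the GFP libraries are the highest for SLC3A2 (177 to 189 TPM).

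The last comparison tested whether the arms differed, by subtracting the shAPC effect from the CTNNB1 effect within a fit of all 12 libraries. PHGDH (0.46), PCK2 (0.64), SLC7A1 (0.39), GARS (0.28) and YARS (0.32) had more positive effects with CTNNB1, and SLC3A2 (-0.37) had a more negative one. The 6 calls of 30 stood beside 16.1% of 11741 genes, 13.3% higher and 2.76% lower. The median was 0.17 log2 units for the group and 0.11 for all genes. Median-ratio scaling moved the median of all genes to 0.00 and that of the group to 0.06, and the split of 5 higher and 1 lower to 3 and 2. It was 2 and 2 with quantile normalization. SLC3A2, SLC7A1 and YARS kept their calls under every alternative. PHGDH lost its call with quantile normalization, and PCK2 without GFP replicate 2, with no filter and under both other scalings. GARS lost its call under both other scalings and in 6 of 12 fits that left out a library. DDIT3, at -0.60 (adjusted p = 0.125, limma), missed the threshold. TRIB3, at -0.42 (adjusted p = 0.0569), missed it too, and passed it with a mean of at least 5 TPM, under both other scalings and without shNT1 replicate 1 or 2 (adjusted p down to 0.0304). The 6 genes called remained among 9 called without shNT1 replicate 3.

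Other genes of the pathway were read from lists drawn up with this group. Of 10 eIF2 kinases and phosphatase subunits, 3 were higher with CTNNB1, 1 higher and 3 lower with shAPC against shNT1, and 5 higher and 1 lower in shNT1 against GFP. Over all genes the shares were 16.3% higher with CTNNB1, 7.24% higher and 14.9% lower with shAPC, and 23.2% higher and 9.92% lower between the controls. The hairpin counts were 1 higher and 1 lower without shNT1 replicate 3, and those of the controls 6 and 2. EIF2AK4 (GCN2), the kinase that senses uncharged tRNA, rose by 0.44 log2 units with CTNNB1 (SE 0.06, adjusted p = 0.00093, limma). PPP1R15A (GADD34), the inducible phosphatase subunit that reverses eIF2α phosphorylation, rose by 0.50 with shAPC (SE 0.09, adjusted p = 0.0029), from a mean of 37.4 to 53.5 TPM. EIF2AK2 (PKR), a kinase activated by double-stranded RNA and induced by interferon, rose by 0.34 in shNT1 against GFP (adjusted p = 0.00081).

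Of 18 other targets of ATF4 and CHOP, 15 were tested. In shNT1 against GFP 9 were higher and 0 lower, beside 23.2% and 9.92% of all genes. In shAPC against CTNNB1 9 were higher and 1 lower, beside 9.05% and 16.2%. With shAPC against shNT1 4 were higher and 3 lower, beside 7.24% and 14.9%. With CTNNB1 4 were higher and 2 lower, beside 16.3% and 7.16%. Leaving out shNT1 replicate 3 gave 10 and 2 in shNT1 against GFP and 4 and 4 between the hairpins. NUPR1, a stress-induced chromatin protein, rose by 1.56 log2 units between the controls (SE 0.36, adjusted p = 0.0115, limma), from a mean of 2.72 to 10.8 TPM, and by 1.49 between the perturbed groups (SE 0.15, adjusted p = 6.1e-05). The former was 2.03 without shNT1 replicate 3. ATF3, an early stress factor, rose by 0.83 with shAPC against shNT1 (SE 0.10, adjusted p = 0.00042), from a mean of 5.05 to 9.69 TPM. Between the hairpins ATF3 was thus called higher, while every called gene of the ATF4 group was lower.

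Synthetases outside the group gave a reference. Of 11 other cytosolic synthetases and complex scaffolds, 3 were lower and 0 higher with shAPC against shNT1, with a median of -0.11 log2 units. Of 17 mitochondrial synthetases, 3 were lower and 1 higher, with a median of -0.04. The 4 of 17 called stood beside 22.1% of all genes, 14.9% lower and 7.24% higher. Leaving out shNT1 replicate 3, 2 of 11 and 1 of 17 were lower. FARSA, a subunit for phenylalanine, fell by 0.27 (adjusted p = 0.0219, limma), and DARS, for aspartate, rose by 0.27 with CTNNB1 (adjusted p = 0.0044). The 8 of 12, 3 of 11 and 4 of 17 shares were not tested against each other.

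Interferon genes also differed between these groups. Of 11 tested, 9 were higher and 0 lower in shNT1 against GFP and 7 were lower and 0 higher in shAPC against shNT1, and of 10 tested 5 were higher and 0 lower with CTNNB1. For these lists, the shares over all genes were 23.2% higher and 9.92% lower in shNT1 against GFP. They were 7.24% higher and 14.9% lower in shAPC against shNT1, and 16.3% higher and 7.16% lower with CTNNB1. IFI6 had means of 3.40 TPM with GFP and 13.0 TPM with shNT1, a rise of 1.66 log2 units (SE 0.08, adjusted p = 1.0e-05, limma). With shNT1 replicate 3 left out, 9 were higher and 0 lower between the controls and 5 were lower and 0 higher between the hairpins. Of 12 ER chaperones and related genes, 1 was higher and 3 lower with shAPC against shNT1, with a median of -0.18 log2 units beside -0.19 for the ATF4 group. Without overlap between these hairpin libraries, 1 of 12 was higher and 8 were lower, beside 14.5% and 26.4% of all genes. In shNT1 against GFP 0 were called higher and 2 lower, and without shNT1 replicate 3, 1 was called higher and 9 lower. Of 13 mitochondrial stress proteases and chaperones, 0 were higher and 1 lower with shAPC against shNT1, and 1 was higher and 1 lower in shNT1 against GFP. With that library left out, 0 were called between the hairpins, and 1 was higher and 3 lower between the controls. The part of interferon signalling in the ATF4 group's values was not tested.

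The authors' deposited tables give the 2 arms from a model of their own. In the authors' deposited table for CTNNB1 against GFP, 9 of the 32 genes passed an adjusted p under 0.05, 8 lower and 1 higher. Of its 28008 rows 2638 passed, or 9.42%, with 4.6% lower, beside 2730 calls among the 11624 genes tested here. The authors' shares rest on more rows and cannot be set beside the shares given above. Of the 9 genes, 4 (TRIB3, SLC3A2, VLDLR and PHGDH) were also called here. The other 5 in the authors' deposited table, all lower, were ATF4 (log2 fold change -0.10, adjusted p = 0.0196), GARS, IARS, SARS and YARS, and MARS was called here alone. In the authors' deposited table for the hairpins, 5 genes passed, all lower (SLC7A1, EPRS, NARS, TARS and YARS), and all 5 were among the 13 called here. Of its 28008 rows 9.01% passed, with 4.9% lower.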

How the data were processed

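RNA-seq of 12 HT-29 libraries in 4 groups was used. The authors deposited TPM per gene and library, each column summing to 1e+06. Their deposited limma tables give log2 fold changes and mean log2 expression, and per the file headers also p-values, adjusted p-values and t and B scores; the scores were not used. STAR 2.7.3a, limma and hg38 are named in the submitters' processing notes. The quantification tool, annotation, strand setting and the model behind the deposited tables are not given in the sources used here. TPM keeps no depth, so depth is unknown and precision rests on the spread between libraries. No column of per-sample values was left unmapped.

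Each comparison was fitted over all genes with limma 3.58.1 (R 4.3.3; lmFit, eBayes with a mean-variance trend) on log2(TPM + 1), for genes with a mean of at least 1 TPM over the libraries of the fit. The pseudocount of 1 understates changes of low genes. A gene was called at a Benjamini-Hochberg adjusted p under 0.05 over all genes tested. The labels do not say that replicates are separate cultures, so p-values measure only the spread between these libraries. The difference of effects used all 4 groups. Scripts were tested on simulated data. Exon overlaps came from GENCODE v29 and promoters from RefSeq.

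All 32 symbols matched as the files give them (AARS, not AARS1); list symbols were also matched through RefSeq synonyms. The genes and lists were chosen with earlier results of these data known. By rule every gene of the group is named. Values by library are given for ATF4, DDIT3, TRIB3, ASNS, CHAC1, SESN2, PSAT1 and PHGDH and for genes called in an arm with at least 0.4 log2 units; other values by library were chosen after they were seen. From each list at most the 3 called genes with the largest difference per comparison are named. Replicate numbers are shared by the groups' titles, but not every same-numbered pair had a correlation of deviations over 0.1 in any comparison, so they were not treated as pairs. The alternatives were another pseudocount, other filters and scalings, a replicate block, a joint fit and leaving out each library.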

Additional observations from a re-analysis of the deposited data

Results flagged for a closer look

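The effects of 6 genes differed between the arms by a test of the difference itself, given in log2 units as the effect of CTNNB1 less that of shAPC (limma). PHGDH differed by 0.46 (SE 0.10, adjusted p = 0.0084): it rose with CTNNB1 in 3 of 3 libraries above every GFP library and was not called between the hairpins. Its call was lost with quantile normalization (adjusted p = 0.0559). PCK2 differed by 0.64 (SE 0.16, adjusted p = 0.0179), a call lost without GFP replicate 2 (adjusted p = 0.0517) and with no filter or under both other scalings (up to 0.0687). SLC3A2 differed by -0.37 (SE 0.08, adjusted p = 0.0079), falling with CTNNB1 alone among the arms' calls. SLC7A1 differed by 0.39 (SE 0.08, adjusted p = 0.0056) and YARS by 0.32 (SE 0.07, adjusted p = 0.0064), both falling with shAPC. GARS differed by 0.28 (SE 0.08, adjusted p = 0.0252), a call lost under both other scalings and in 6 of the 12 fits that left out a library (adjusted p up to 0.159).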

How the results depend on the processing

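No called gene of the group changed direction under any alternative tried. The number called with shAPC against shNT1 was 13 in the fit reported, 8 without a filter on low values, 7 with median-ratio scaling and 5 with quantile normalization. Over all genes it was 2615, 1929, 2854 and 2712 in that order. For the difference of effects, 6 calls in the group became 10 with a mean of at least 5 TPM. Leaving out 1 library at a time gave 3 to 5 calls for CTNNB1 against GFP, 5 to 17 for shAPC against shNT1, 9 to 22 for shNT1 against GFP, 7 to 13 for shAPC against CTNNB1 and 4 to 9 for the difference of effects. Over all genes these fits called 1499 to 3190, 1484 to 2252, 2387 to 4480, 1622 to 3506 and 995 to 2143 in that order. The fits of all libraries called 2730, 2615, 3859, 2982 and 1885. With the replicate block the counts in the group were 5, 10, 15, 18 and 6 in that order, and over all genes 1145 were called for the difference of effects against 1885 without the block. The mean correlation of same-numbered libraries was 0.14 for CTNNB1 against GFP, -0.12 for shAPC against shNT1, -0.03 for shNT1 against GFP and 0.14 for shAPC against CTNNB1, and in no comparison did every pair exceed 0.1. Of the 6 libraries of each comparison, 5, 1, 0 and 5 in that order correlated best with their own number. Of all genes called, the share that was higher was 69.5% with CTNNB1, and 49.4% with median-ratio and 52.9% with quantile scaling. These shares were 32.8%, 47.6% and 49.4% for shAPC against shNT1, 70.0%, 48.1% and 51.5% for shNT1 against GFP, 35.8%, 48.8% and 47.9% for shAPC against CTNNB1, and 82.8%, 54.9% and 56.5% for the difference of effects. The cause of these changes was not tested. The share of promoters with the element was 3.617% over 35116 promoters and 3.144% in the 250 bases before the start alone. Low levels limit ASNS, ALDH1L2, CHAC1 and VLDLR, for which the pseudocount understates differences.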

Other observations

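Of 9 other amino acid transporters tested, 3 were higher and 2 lower with CTNNB1, beside 16.3% and 7.16% of all genes. With shAPC against shNT1 1 was higher and 3 lower, beside 7.24% and 14.9%, and without shNT1 replicate 3, 2 were higher and 3 lower. SLC7A11, the cystine carrier of system xc, fell by 0.63 log2 units with CTNNB1 (SE 0.08, adjusted p = 0.00046, limma) and by 0.65 with shAPC (SE 0.08, adjusted p = 0.00046), from means of 125 to 81.0 TPM and of 124 to 78.5 TPM. SLC6A6, a taurine carrier, rose by 0.60 with CTNNB1 (SE 0.05, adjusted p = 6.8e-05) and by 0.41 with shAPC (SE 0.08, adjusted p = 0.0067). SLC1A5, a glutamine carrier, fell by 0.33 in shNT1 against GFP (adjusted p = 0.00046). SLC43A1, a carrier of large neutral amino acids, fell by 0.49 with shAPC (adjusted p = 0.0015). The arms share no library. Without shNT1 replicate 3 the hairpin values were -0.73 for SLC7A11, 0.48 for SLC6A6 and -0.52 for SLC43A1.

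SESN1, a sestrin related to SESN2, rose in both arms, by 1.09 log2 units with CTNNB1 (SE 0.11, adjusted p = 0.00015, limma) and 1.06 with shAPC (SE 0.08, adjusted p = 1.9e-05), while SESN2 was not called in either. KLHL24 rose by 0.80 (adjusted p = 0.0017) and 0.88 (adjusted p = 2.6e-05), and GDF15, a secreted stress cytokine, by 0.64 (adjusted p = 0.00024) and 0.61 (adjusted p = 0.0031). ASS1, the enzyme of argininosuccinate synthesis, rose by 0.83 in shNT1 against GFP (adjusted p = 0.00025) and by 0.76 in shAPC against CTNNB1 (adjusted p = 0.00027). DNAJB9, an ER chaperone cofactor, rose by 0.83 with shAPC (SE 0.07, adjusted p = 3.3e-05), from a mean of 18.6 to 34.0 TPM, and the arms' effects on it differed by -1.04 (adjusted p = 8.9e-05).

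Of 11 other amino acid and one-carbon enzymes tested, 1 was higher and 0 lower with CTNNB1, beside 16.3% and 7.16% of all genes. With shAPC against shNT1 0 were higher and 3 lower, beside 7.24% and 14.9%. Of 9 mTORC1 regulators tested, SESN1 was the 1 gene called in either arm. Over all genes 23.5% were called with CTNNB1 and 22.1% with shAPC.

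In shNT1 replicate 3, 10 of the 15 tested genes in the list of other ATF4 and CHOP targets were the lowest of the group, beside 27.7% of all genes. The counts were 7 of 11 for other amino acid and one-carbon enzymes, 6 of 11 for interferon genes, 5 of 9 for other transporters, 3 of 11 for other cytosolic synthetases, 3 of 17 for mitochondrial synthetases, 2 of 10 for eIF2 kinases and phosphatase subunits, 1 of 13 for mitochondrial stress genes, 1 of 12 for ER chaperones and 0 of 9 for mTORC1 regulators. What sets that library apart was not tested.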
